A study of Mus musculus with 4 samples.

Results

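The heavy chain variable genes (Ighv genes) of the mouse were followed in spleen cells of mice with a cyclin D3 mutation and of wild-type mice. They were taken as every row whose symbol starts with Ighv and that held at least 5 unique molecular identifiers (UMIs, counted RNA molecules) over the 4 libraries. Of 185 such rows among 32285 genes, 108 were members, and the other 77 held 0 UMIs (50 rows) or 1 to 4 (27 rows). At the edge of the rule, 5 members had 5 UMIs and 3 rows left out had 4. The groups were 2 female C57BL/6J mice heterozygous for a CRISPR/Cas9 knock-in that replaces threonine 283 of cyclin D3 by alanine (D3TA), and 2 female wild-type C57BL/6J mice (WT), matched for age and sex. D3TA mice were aged 12 and 16 months, when they have severe disease of the myeloid lineages (a myeloproliferative neoplasm), and the labels do not tie an age to a mouse. The allele is carried in the germ line, so all cell types of the D3TA mice hold it. Each mouse gave 1 library of droplet single-cell RNA sequencing.

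A B cell builds its heavy chain by joining 1 V segment to a D and a J segment, so each clone of B cells carries the V gene it chose in all of its progeny. The V segment encodes most of the antigen-binding part of the chain, and its transcript is read through into a constant region gene such as Ighm. Resting B cells hold few heavy chain transcripts, whereas plasma cells, which secrete antibody, hold very many. A V gene shared by many cells of a library therefore describes usage, and cells of 1 clone are not independent of each other.

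All 108 members lie on the minus strand of chromosome 12 between 113578504 and 116000461 (GRCm38, the sequence of mm10). They fall into 15 families by the number after Ighv, of which Ighv1 holds 56. GENCODE M21 annotates 12 of the members as pseudogenes and 96 as V genes. The members are close in sequence to other Ighv rows. Over the spliced V transcripts, the identity of a member to its nearest other Ighv row, member or not, had a median of 92.2%. For 31 members it was 95% or more. UMIs of such neighbours can be counted under either name.

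The V exons of the genes that led the usage described below were read from the GENCODE M21 transcripts, up to the last 300 bases. Ighv1-52 led in plasma cells of D3TA replicate 1 (chr12:115145487-115145786). Ighv1-61 (chr12:115359140-115359439) is its nearest relative, at 98.6% identity over the transcript. Capitals mark the 4 bases at which both exons differ.

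Ighv1-52: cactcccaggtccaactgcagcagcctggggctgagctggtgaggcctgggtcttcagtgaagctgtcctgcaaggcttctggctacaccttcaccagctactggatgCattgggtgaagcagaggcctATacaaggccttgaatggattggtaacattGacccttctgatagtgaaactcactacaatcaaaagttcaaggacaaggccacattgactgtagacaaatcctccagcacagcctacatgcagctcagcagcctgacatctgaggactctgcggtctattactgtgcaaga
Ighv1-61: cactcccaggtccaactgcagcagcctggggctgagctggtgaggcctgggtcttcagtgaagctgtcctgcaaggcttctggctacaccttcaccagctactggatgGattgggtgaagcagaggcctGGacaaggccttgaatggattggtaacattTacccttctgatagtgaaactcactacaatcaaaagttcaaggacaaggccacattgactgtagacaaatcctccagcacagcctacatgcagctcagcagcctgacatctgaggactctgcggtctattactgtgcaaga

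The other leading genes were Ighv5-6 in B cells of D3TA replicate 1 (chr12:113625506-113625805) and Ighv1-9 in plasma cells of D3TA replicate 2 (chr12:114583569-114583868). In the WT libraries they were Ighv1-53 in plasma cells of replicate 1 (chr12:115158403-115158702) and Ighv6-3 in plasma cells of replicate 2 (chr12:114391712-114392011). Capitals mark the segment's end from its last TGT or TGC codon after a TAC or TAT, the conserved cysteine at the start of CDR3. The D and J segments are joined after that end, and they are not resolved by counts per V gene.

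Ighv5-6: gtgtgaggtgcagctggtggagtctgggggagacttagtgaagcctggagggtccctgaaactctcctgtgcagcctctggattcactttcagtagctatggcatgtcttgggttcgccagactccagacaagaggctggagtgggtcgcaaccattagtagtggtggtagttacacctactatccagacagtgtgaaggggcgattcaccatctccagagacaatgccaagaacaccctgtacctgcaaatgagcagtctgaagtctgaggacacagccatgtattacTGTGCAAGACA
Ighv1-9: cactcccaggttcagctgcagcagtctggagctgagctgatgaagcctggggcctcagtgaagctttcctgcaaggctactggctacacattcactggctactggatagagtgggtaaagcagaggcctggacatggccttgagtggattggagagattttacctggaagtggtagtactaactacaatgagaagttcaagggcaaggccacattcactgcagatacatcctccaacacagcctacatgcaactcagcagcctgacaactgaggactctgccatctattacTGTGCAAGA
Ighv1-53: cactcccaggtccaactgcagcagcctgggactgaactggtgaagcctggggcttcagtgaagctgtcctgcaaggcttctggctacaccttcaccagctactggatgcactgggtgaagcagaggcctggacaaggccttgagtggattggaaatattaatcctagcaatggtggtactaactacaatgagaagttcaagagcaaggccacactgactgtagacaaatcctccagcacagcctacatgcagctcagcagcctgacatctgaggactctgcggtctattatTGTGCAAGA
Ighv6-3: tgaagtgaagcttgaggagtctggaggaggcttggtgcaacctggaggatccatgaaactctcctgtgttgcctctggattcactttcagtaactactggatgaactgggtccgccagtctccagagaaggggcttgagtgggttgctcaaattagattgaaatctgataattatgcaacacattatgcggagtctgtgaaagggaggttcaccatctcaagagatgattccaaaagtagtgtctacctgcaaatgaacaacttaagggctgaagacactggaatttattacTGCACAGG

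Ighv1-52 and Ighv6-3 were 58.4% identical over the transcript and Ighv1-52 and Ighv1-53 92.0%.

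The deposited counts held 81416981 to 143811696 UMIs per library, and 7675 to 22290 cells per library were analysed after filters. WT replicate 1 stood apart in depth, with a median of 1393 UMIs per cell against 7561 to 7912 in the other libraries. Plasma cells and B cells were gated per cell by the share of UMIs from marker genes that include no V gene. Jchain, which links secreted antibody units, was detected in 98.7% and 98.1% of the plasma cells of D3TA replicates 1 and 2, against 100% and 98% of those of WT. The plasma cell surface proteoglycan gene Sdc1 was detected in 78.6% and 91.5% of D3TA plasma cells, against 40.3% and 87.2% of WT plasma cells. The B cell gene Ms4a1 was seen in 94.6% and 97.3% of D3TA B cells, against 68.0% and 92.6% of WT B cells, and Sdc1 in 1.16% to 2.07% of B cells in the 4 libraries. Some markers were also seen in the other gate. Ms4a1 was seen in 70.8% and 55.2% of D3TA plasma cells, against 50.3% and 64.9% of WT plasma cells. Jchain was seen in 37.7% and 59.7% of D3TA B cells, against 37.7% and 48.2% of WT B cells. The plasma cell gene Prdm1 was seen in 22.4% and 3.86% of D3TA B cells, against 1.43% and 2.93% of WT B cells. S100a8, a neutrophil gene, was seen in 99.5% or more of B and plasma cells of both D3TA libraries and in 17.4% to 23.9% of those of WT, which gives a measure of free RNA in the droplets. Its part in the results below was not tested. The libraries shared 18 to 89 cell barcodes pairwise among the analysed cells.

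Transcripts of the V genes were concentrated in plasma cells. In plasma cells the members together made up 559 and 1040 CPM (UMIs per 1000000 UMIs) in D3TA, against 1113 and 897 in WT. The ranges overlap, and the exact permutation test over the 4 libraries gave p = 0.667 (two-sided, smallest possible 0.33). In B cells they made up 16.2 and 29.5 CPM in D3TA, against 47.8 and 41.0 in WT. Both D3TA libraries lay under both WT libraries, with means of 0.00229% ± 0.000937 of all UMIs in D3TA and 0.00444% ± 0.000479 in WT (SD, n = 2 mice each). The exact permutation p of 0.33 is the smallest that 2 against 2 mice allow. Among constant genes, Ighm stood at 3615 and 3045 CPM in D3TA B cells, against 3053 and 3188 in WT B cells, and the groups overlap. The light chain constant gene Igkc stood at 5360 and 3413 CPM in D3TA B cells, against 7192 and 6096 in WT, lower in both D3TA libraries. Ighd stood at 110 and 785 CPM in D3TA B cells, against 750 and 751 in WT, with D3TA replicate 1 alone low.

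**Figure D1:**
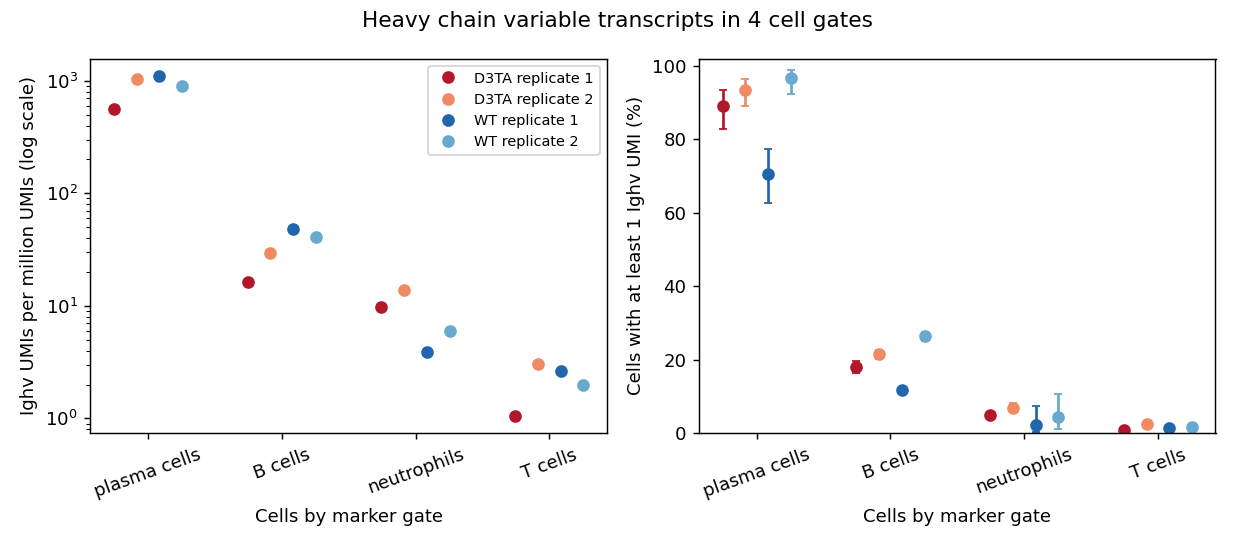
Ighv UMIs in CPM (UMIs per 1000000) on a log scale (left) and the share of cells with at least 1 Ighv UMI in percent (right), per library, for cells gated as plasma cells, B cells, neutrophils and T cells. Points are libraries and bars are 95% Clopper-Pearson intervals. Plasma cells lie between 559 and 1113 CPM, B cells between 16.2 and 47.8, with both D3TA libraries lower in B cells.

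An Ighv UMI was found in 89.0% and 93.4% of D3TA plasma cells, against 70.4% and 96.6% of WT plasma cells. Among B cells it was found in 18.1% (95% Clopper-Pearson interval 16.5 to 19.7) and 21.4% (20.2 to 22.7) in D3TA, against 11.7% (11.2 to 12.3) and 26.4% (25.2 to 27.6) in WT. Depth differed between the libraries, and the median B cell held 13172 and 7688 UMIs in D3TA, against 1388 and 7834 in WT. Thinned to 500 UMIs per cell, 0.989% and 2.05% of D3TA B cells had one, against 2.37% and 1.81% of WT B cells, and the genotypes overlap. T cells, which do not rearrange this locus in full, give the background. Without thinning, an Ighv UMI was found in 0.738% and 2.40% of D3TA T cells, at median depths of 6345 and 7727 UMIs. In WT T cells it was 1.31% and 1.67%, at 8495 and 8176. Thinned to 500 UMIs, it was 0% and 0.147% of D3TA T cells, against 0.0873% and 0% of WT T cells. B cells stood above the T cells of the same library in every library, with and without thinning. The intervals cover counting error only.

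A V gene was assigned to a cell when it held at least 2 UMIs of that gene and the gene made up at least 2 in 3 of its Ighv UMIs. This covered 117 and 185 plasma cells in D3TA, against 69 and 131 in WT. In B cells, where most cells held 0 or 1 such UMI, it covered 67 and 137 cells in D3TA, against 329 and 276 in WT. The B cell usage below thus describes 2.10% to 5.16% of the B cells, those with at least 2 UMIs of 1 V gene. Assigned B cells were deeper in WT replicate 1, at medians of 3765 UMIs (Ighv1-64) and 8193 (other members), against 1388 in its gate. They were also deeper than their gate in D3TA replicate 2 and WT replicate 2. In D3TA replicate 1 they were not, at 12047 (Ighv5-6) and 12002 (other members) against 13172.

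Plasma cells of each mouse were led by a different V gene. In D3TA replicate 1, Ighv1-52 held 43 of 117 assigned plasma cells, or 36.8% (28.0 to 46.2). In D3TA replicate 2, Ighv1-9 held 19 of 185, or 10.3% (6.30 to 15.6), just ahead of Ighv9-3 with 18. In WT replicate 1, Ighv1-53 held 9 of 69, or 13.0% (6.14 to 23.3). In WT replicate 2, Ighv6-3 held 48 of 131, or 36.6% (28.4 to 45.5), and Ighv1-53 held 16. The leading share averaged 23.5% ± 18.7 in D3TA and 24.8% ± 16.7 in WT (SD, n = 2 mice each), with an exact permutation p of 1. By share of UMIs in place of cells, the leading gene held 11.6% and 9.78% in D3TA, against 21.4% and 40.8% in WT, so the leader of D3TA replicate 1 stood out by cells but not by UMIs. Its 43 Ighv1-52 plasma cells held a median of 4 Ighv UMIs, against 22 in its 74 plasma cells assigned to another member.

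Most leaders were scarce in the other mice. Ighv1-52 held 43 and 3 plasma cells in the D3TA mice, against 2 and 0 in the WT mice. Ighv6-3 held 6 and 1 plasma cells in D3TA, against 0 and 48 in WT. Ighv1-9 held 3 and 19 in D3TA, against 1 and 2 in WT, and Ighv9-3 held 2 and 18 in D3TA, against 2 and 3 in WT. Ighv1-53, the leader of WT replicate 1, held 4 and 3 plasma cells in D3TA, against 9 and 16 in WT. Ighv3-6 was seen in every mouse, with 5 and 9 plasma cells in D3TA against 4 and 5 in WT.

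**Figure D2:**
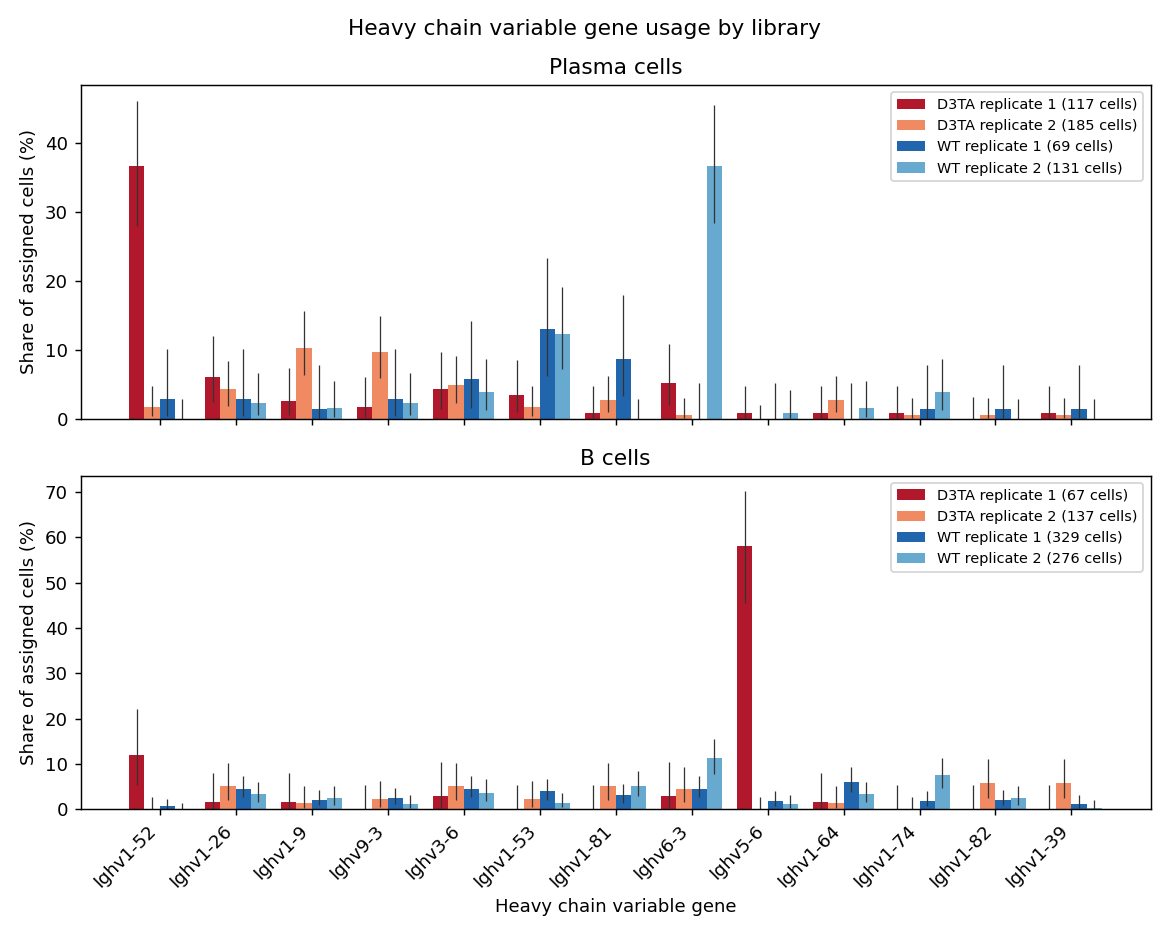
Share of assigned cells in percent for 13 V genes in plasma cells (top) and B cells (bottom), 1 bar per library, D3TA in reds and WT in blues, with 95% Clopper-Pearson intervals. Ighv1-52 reaches 36.8% of plasma cells in D3TA replicate 1, Ighv6-3 36.6% in WT replicate 2 and Ighv5-6 58.2% of B cells in D3TA replicate 1.

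Evenness was measured by the effective number of genes, the number of equally used genes that would give the same chance that 2 random cells share a gene. In plasma cells it was 6.86 and 27.6 in D3TA, against 27.6 and 6.57 in WT. The genotypes overlap fully, with means of 17.2 ± 14.7 in D3TA and 17.1 ± 14.9 in WT (SD, n = 2 mice each, exact permutation p = 0.667). The spread within a genotype was far larger than the difference of 0.161 between them. Drawn down to 69 cells each, plasma cells showed 28.2 and 33.1 different genes in D3TA, against 36 and 27.3 in WT.

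In B cells the effective number was 2.85 and 42.3 in D3TA, against 40.5 and 31.2 in WT. D3TA replicate 1 stood alone at the low end, and the other 3 libraries lay within 31.2 to 42.3. The means were 22.6 ± 27.9 in D3TA and 35.8 ± 6.55 in WT (SD, n = 2 mice each), and the exact permutation p was 1. Without D3TA replicate 1, the remaining D3TA library exceeded the WT mean by 6.50. Plasma cells were less even than B cells in 3 of 4 libraries, the difference being 4.02 and -14.7 in D3TA, against -12.9 and -24.6 in WT (exact sign-flip permutation p = 0.25, n = 4 libraries). With at least 3 UMIs and 9 in 10 required, WT replicate 1 turned to 24.5, which leaves 2 of 4. By Pielou evenness, which scales for the number of genes seen, plasma cells of WT replicate 1 stood at 0.920 and its B cells at 0.902. By UMI shares the plasma effective number was 19.7 and 21.4 in D3TA, against 12.4 and 5.45 in WT.

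**Figure D3:**
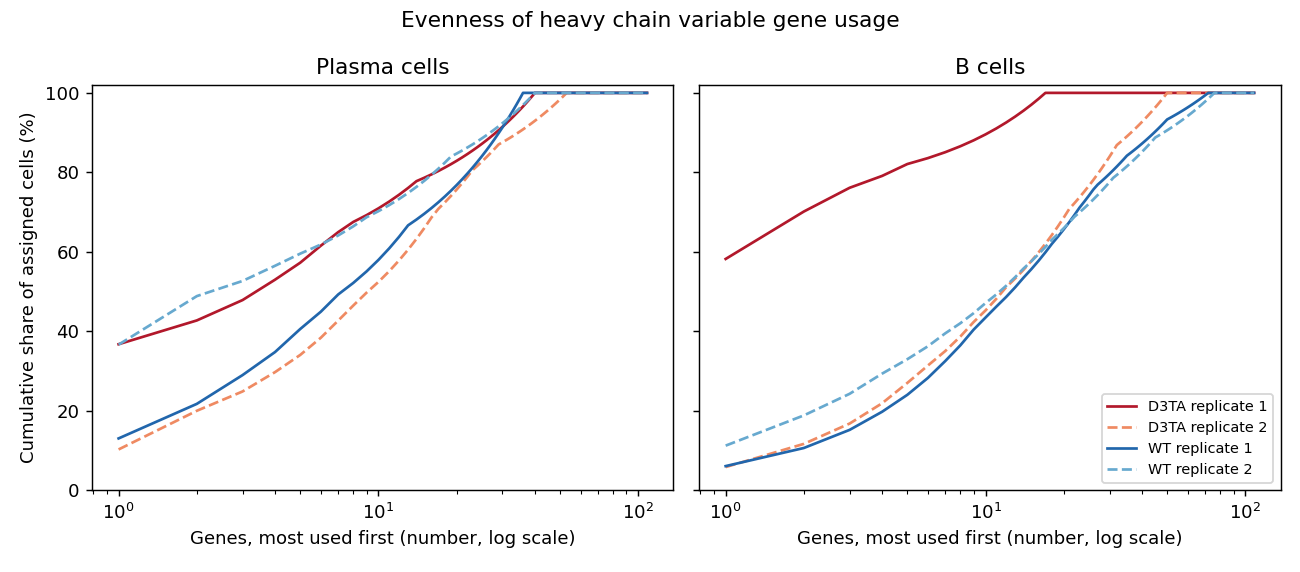
Cumulative share of assigned cells in percent against the number of V genes, most used first, on a log scale, for plasma cells (left) and B cells (right), 1 line per library. In B cells the line of D3TA replicate 1 starts at 58.2%, those of the other 3 libraries between 5.84% and 11.2%.

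In D3TA replicate 1 the B cells were dominated by 2 V genes. Ighv5-6 held 39 of 67 assigned B cells, or 58.2% (45.5 to 70.2), against 0 of 137 in D3TA replicate 2 and 6 of 329 and 3 of 276 in WT. Ighv1-52 came next with 8 cells, against 0 in D3TA replicate 2 and 2 and 0 in WT. Assigned from a single UMI, the order turned: Ighv1-52 held 166 of 393 B cells, or 42.2% (37.3 to 47.3), and Ighv5-6 held 83, or 21.1% (17.2 to 25.5). In the other libraries, by the same rule, Ighv1-52 held 1.04% in D3TA replicate 2 and 0.740% and 0.678% in WT. Ighv5-6 held 0.921% in D3TA replicate 2 and 1.71% and 1.20% in WT.

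These UMIs were spread over many cells. Ighv1-52 had 181 UMIs in 171 B cells of D3TA replicate 1 and at most 4 in a cell, and Ighv5-6 had 138 UMIs in 84 cells. Only 1 cell held UMIs of both genes. T cells of the same library, 20962193 UMIs in all, held 0 UMIs of Ighv1-52 and 1 of Ighv5-6, and its neutrophils held 4 and 2. No other member had as many of the 512 Ighv UMIs of these B cells.

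Both sets of cells also differed in their light chain and constant genes, which the choice of cells did not use. In the 170 cells with Ighv1-52 UMIs, Igkv1-117 made up 279 of 500 light chain V UMIs, or 55.8%. In the 83 cells with Ighv5-6 UMIs, Igkv19-93 made up 39 of 79, or 49.4%, and Igkv1-117 10.1%. In the 148 cells with UMIs of other members only, Igkv1-117 made up 19.7% and Igkv19-93 3.15% of 254. Ighd, the constant gene of naive B cells, made up 0.557% of heavy chain constant UMIs in Ighv1-52 cells, against 13.6% in Ighv5-6 cells and 8.42% in cells of other members. Ighm made up 96.9%, 76.2% and 71.1% in these 3 sets.

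**Figure D4:**
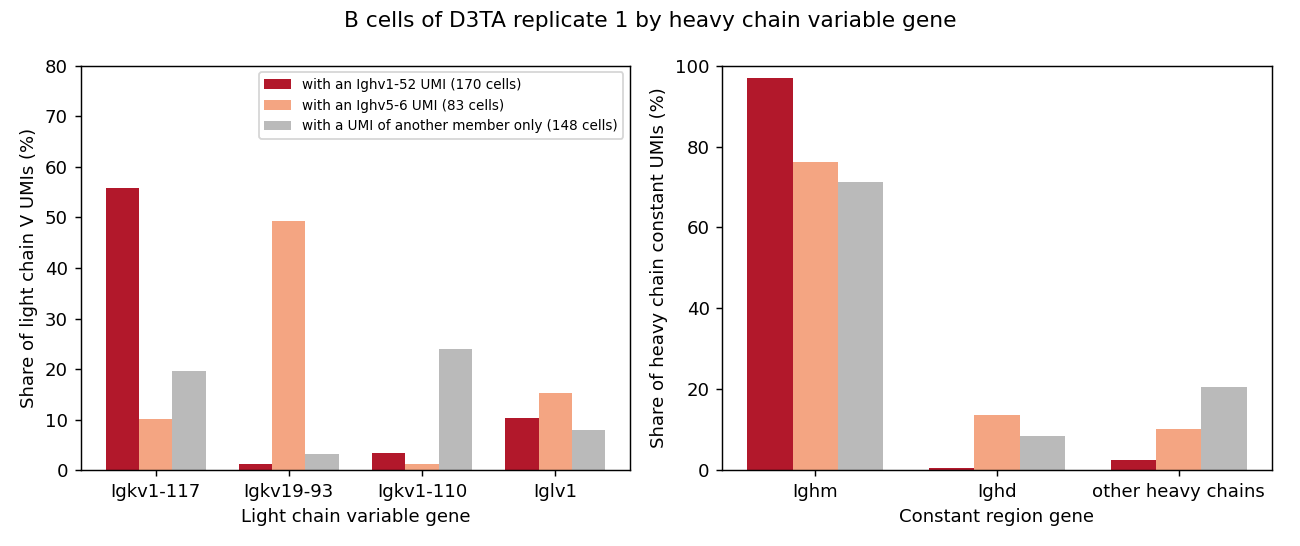
Share of light chain V UMIs (left) and of heavy chain constant UMIs (right) in percent, in B cells of D3TA replicate 1 with an Ighv1-52 UMI (170 cells), an Ighv5-6 UMI (83 cells) or a UMI of another member only (148 cells). Igkv1-117 leads beside Ighv1-52 at 55.8% and Igkv19-93 beside Ighv5-6 at 49.4%. Counts are sums over the cells of 1 library, with no replicate.

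The light chain gene Igkv1-117 was common in the whole B cell gate of that library. It held 444 of 616 B cells with an assigned light chain V gene, or 72.1% (68.4 to 75.6), in D3TA replicate 1 and 15.0% in D3TA replicate 2, against 8.92% and 25.7% in WT. Prdm1, which drives plasma cell differentiation, stood at 25.2 and 6.41 CPM (after TMM scaling) in D3TA B cells, against 5.82 and 4.07 in WT. The recombinase gene Rag1 stood at 2.06 and 0.230 CPM in D3TA B cells, against 0.0563 and 0.104 in WT. Both were named after their values were seen. Neither gene passed the test across genes (edgeR, adjusted p = 0.842 each), and both were highest in D3TA replicate 1.

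In plasma cells, leading V genes came with few light chains. In WT replicate 2, Ighv6-3 was found with Igkv3-12 in 43 of its 44 plasma cells with an assigned light chain, and 41 of these 43 were mostly Ighm. Ighv1-53 was found with Igkv1-117 in 12 of 13 there, and with Igkv4-55 in 4 of 5 plasma cells of WT replicate 1. In D3TA replicate 1, Ighv1-52 was found with Iglv1 in 11 of 17 and with Igkv1-117 in 5. In D3TA replicate 2, Ighv9-3 was found with Igkv5-39 in 9 of 13, while Ighv1-9 was found with Igkv19-93 in 6 and with Igkv12-46 in 6 of 15. Iglv1 was the light chain V gene with most UMIs in plasma cells of both D3TA libraries and of WT replicate 1.

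A heavy and light pair found in 2 or more plasma cells held 57.7% of 71 and 56.0% of 134 paired cells in D3TA, against 17.1% of 35 and 66.3% of 104 in WT. WT replicate 1, the shallowest library, had the fewest paired cells. Ighm was the main constant gene in 140 of 154 and 127 of 212 plasma cells in D3TA, against 100 of 159 and 123 of 148 in WT. Among Ighm plasma cells the effective number of V genes was 5.74 and 18.2 in D3TA, against 16.7 and 5.48 in WT, the same order as over all plasma cells. D3TA replicate 2 had 38 Igha plasma cells, and the 32 of them with an assigned V gene gave an effective number of 24.8.

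The genotypes were then compared gene by gene with edgeR's quasi-likelihood test on UMIs summed per library, adjusted by Benjamini-Hochberg over all genes tested. In B cells 48 of the 108 members passed the filter on low counts and 0 were called at an adjusted p under 0.05, as were 0% of all 15462 genes tested. At an unadjusted p under 0.05 there were 5 members, all lower in D3TA, beside 5.30% of all genes. DESeq2 called 0 of 32 members and 170 of 14562 genes. The median log2 fold change over the 48 was -0.98, beside 0.01 over all genes, with 43 below 0. Over all 108 members, 48 had a lower CPM in both D3TA libraries than in either WT library and 1 had a higher one. Among all genes with 5 UMIs or more in the analysed cells these shares were 20.1% lower and 13.3% higher.

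The member with the smallest p in B cells was Ighv1-53, named after its value was seen. It had 12 and 17 UMIs in D3TA B cells, against 118 and 73 in WT B cells, a log2 fold change of -2.14 ± 0.44 (SE, n = 2 each, edgeR adjusted p = 0.842). Ighv6-3 had 21 and 35 UMIs in D3TA B cells, against 67 and 170 in WT. Ighv3-6 had 6 and 46 in D3TA, against 120 and 56 in WT. Without D3TA replicate 2, the median log2 fold change over the tested members was -2.78, beside -0.05 over all genes. Without D3TA replicate 1 it was -0.48, beside -0.04 over all genes. Both of these fits take their spread from the WT pair alone. Without WT replicate 1 or WT replicate 2 it was -0.73 and -1.14, beside 0.004 and 0.03 over all genes.

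In plasma cells 44 members were tested and 3 were called, 1 higher and 2 lower in D3TA, beside 0.186% of all 10223 genes tested (0.166% higher and 0.0196% lower). Each rested on very few cells. Ighv7-3 had 0 and 0 UMIs in D3TA, against 32 and 67 in WT, each of these from 1 cell (adjusted p = 0.00521). Ighv1-76 had 0 and 0 UMIs in D3TA, against 20 UMIs from 1 cell and 95 from 3 cells in WT (adjusted p = 0.0129). Ighv5-16 had 67 and 76 UMIs in D3TA, each from 1 cell, against 0 and 0 in WT (adjusted p = 0.0141). All 3 passed the filter on low counts only through the group that held UMIs. UMIs of 1 cell are not independent, so no fold is given.

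These sums followed single cells. The median plasma cell held 6 and 19 Ighv UMIs in D3TA, against 1 and 16.5 in WT, but the highest cell held 206 and 209 in D3TA, against 348 and 186 in WT. Of members with at least 10 UMIs, 1 cell gave at least 50% of the UMIs for 28 of 37 and 32 of 51 in D3TA plasma cells, against 23 of 31 and 20 of 30 in WT. In WT replicate 1, all 347 Ighv1-9 UMIs, or 21.4% of its Ighv UMIs, came from 1 plasma cell. For Ighv1-76, D3TA replicate 1 held 66 UMIs in 1 cell gated as a neutrophil. In D3TA B cells Ighv1-76 had 0 and 23 UMIs, against 20 and 25 in WT. Over all 108 members in plasma cells, 11 had a higher CPM in both D3TA libraries than in either WT library and 10 had a lower one, beside 12.5% and 7.28% of all genes. Each left-out library raised the number of called members, and that of all called genes, in fits that leave 1 mouse in a group.

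Over all analysed spleen cells 74 members were tested and 1 was called, lower in D3TA, beside 6.03% of all 18345 genes tested (5.66% higher and 0.376% lower). Ighv10-1 had 17 and 8 UMIs in D3TA, against 104 and 51 in WT, a log2 fold change of -3.13 ± 0.58 (SE, n = 2 each, edgeR adjusted p = 0.0457). Of the 104 UMIs of WT replicate 1, 68 came from 4 plasma cells, 43 of them from 1 cell. Of the 51 of WT replicate 2, 9 came from 1 plasma cell. UMIs of 1 cell are not independent, so the fold rests in part on few cells. The groups do not overlap, but the call was lost without any 1 of the 4 libraries. In such sums fewer cells of a type and less RNA per cell cannot be told apart. B cells were 18.9% and 39.8% of analysed cells in D3TA, against 70.2% and 69.7% in WT. The median log2 fold change over the 74 members was -0.40, beside -0.003 over all genes. Without D3TA replicate 2, with 1 D3TA mouse left, it was -1.81 over the tested members, beside -0.03 over all genes. Without D3TA replicate 1 it was -0.02, beside -0.02 over all genes. Without WT replicate 1 or WT replicate 2 it was 0.02 and -0.12, beside 0.01 over all genes in both fits.

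Ighv1, with 56 members, held 76.1% and 56.2% of assigned plasma cells in D3TA, against 58.0% and 44.3% in WT. In B cells it held 23.9% and 54.0% in D3TA, against 52.6% and 53.3% in WT, so D3TA replicate 1 alone lay low. Ighv5 held 59.7% and 8.03% of assigned B cells in D3TA, against 14.0% and 10.5% in WT, and Ighv6 held 36.6% of plasma cells in WT replicate 2 and 0% to 5.13% in the other libraries. The other 12 families each held at most 10.1% of plasma cells and 6.57% of B cells in any library.

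The most used B cell genes of the families, by the mean share over libraries, were Ighv5-6 (15.3%), Ighv6-3 (5.79%), Ighv3-6 (4.07%), Ighv1-26 (3.61%) and Ighv4-1 (3.10%). The mean of Ighv5-6 rests on D3TA replicate 1, since the other 3 libraries gave 0% to 1.82%. Next came Ighv8-8 (1.75%), Ighv2-2 (1.53%), Ighv9-3 (1.43%) and Ighv13-2 (1.08%). Ighv10-3, Ighv7-3, Ighv14-2, Ighv15-2 and Ighv11-2 lay between 0.349% and 0.970%, and Ighv12-3 at 0%. Ighv1-81 (3.31%) was the other gene among the 5 most used overall. The leader of the other libraries was Ighv1-39 with 8 of 137 B cells in D3TA replicate 2, tied with Ighv1-82, Ighv1-64 with 20 of 329 in WT replicate 1 and Ighv6-3 with 31 of 276 in WT replicate 2.

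Ighv11-2 and Ighv12-3 are known from mouse B-1 cells, which use them against phosphatidylcholine. Ighv11-2 had 0 and 53 UMIs in D3TA plasma cells, all 53 from 1 cell, against 0 and 31 in WT. In B cells it had 2 and 11 UMIs in D3TA, against 13 and 10 in WT. Ighv12-3 had 6 and 2 UMIs in D3TA plasma cells, against 0 and 0 in WT. In B cells it had 1 and 3 in D3TA, against 9 and 4 in WT. Both stayed rare in all 4 libraries.

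Levels across the members were closer between mice in B cells than in plasma cells for every pair of libraries. Within B cells, D3TA replicate 1 was the least like the others. Across the 108 genes, Spearman's rho of B cell UMIs was 0.81 to 0.82 among D3TA replicate 2 and both WT libraries, and 0.53 to 0.58 for D3TA replicate 1 with each of them. In plasma cells it was 0.28 to 0.41 for the 6 pairs of libraries. These are correlations across genes that share reference lengths and sequence, given as a description. By position, the 27 members nearest the constant genes held 67.2% and 15.3% of assigned B cells in D3TA, against 24.6% and 22.5% in WT. Ighv5-6, 1 of these 27, alone held 58.2% in D3TA replicate 1. In plasma cells the 27 members held 8.55% and 15.1% in D3TA, against 17.4% and 9.92% in WT.

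Members by breadth of use ran from rare to general. Of the 108, 75 were assigned to a plasma cell of some library, 13 in all 4 libraries and 21 in 1 library. In B cells 90 were assigned to some cell and 11 in all 4. The total per member over all barcodes ran from 5 to 2173 UMIs, the highest being Ighv6-3, with a median of 116. Annotated pseudogenes held 0 assigned plasma cells in all 4 libraries. In B cells they held 0 and 0 cells in D3TA, against 1 and 11 in WT, where Ighv1-38 had 85 UMIs in replicate 2 and 3 in replicate 1.

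Factors that act on the heavy chain locus were counted from 2 lists. Of 16 genes of heavy chain transcription, all 16 were tested and 0 were called in B cells or plasma cells by edgeR, with 1 and 2 at an unadjusted p under 0.05, and DESeq2 called 0 in both. Over all genes, 5.30% in B cells and 3.62% in plasma cells had such a p. Of 16 genes of rearrangement and diversification, 15 were tested in B cells and 12 in plasma cells. None was called by edgeR, with 2 and 1 at an unadjusted p under 0.05, and DESeq2 called 0. Their median log2 fold changes were -0.03 and 0.27 in B cells, beside 0.01 over all genes. In the whole spleen 1 of the 16 transcription genes was called, Hnrnpll, an RNA-binding splicing factor, at 58.5 and 49.0 CPM in D3TA, against 18.0 and 21 in WT (log2 fold change 1.46 ± 0.18, SE, n = 2 each, edgeR adjusted p = 0.0173). With 1 library left out its adjusted p reached 0.166. DESeq2 called 6 of the 16 in the whole spleen. In plasma cells Hnrnpll stood at 7.62 and 9.28 CPM in D3TA, against 6.77 and 5.54 in WT (edgeR adjusted p = 1.00), and in B cells at 2.30 and 2.38 in D3TA, against 4.64 and 0.959 in WT. Both gates lay below the level of the whole spleen.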

How the data were processed

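Gene-by-barcode matrices of 4 spleen libraries, 1 per mouse, hold UMI counts, deposited by the authors without normalization. Per the file headers they were made with Cell Ranger 7.0.1, and the submitters' processing notes name mm10. For the sequenced end and the annotation release, nothing is given in the sources used here. Libraries were grouped by the labels.

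Cells with at least 500 UMIs and 250 genes and at most 10% mitochondrial UMIs were kept, and Scrublet doublets (scanpy 1.11.5, expected rate 6%) removed. In WT replicate 1, where its own threshold found 0, that of the other 3 libraries was averaged and used. Plasma cells had at least 0.5% of UMIs from plasma markers other than Jchain and at least 5 of 14 detected. B cells had at least 0.5% from 15 B markers and at least 3 detected. Both were limited to under 0.3% T, 2% neutrophil, 2% erythroid and 0.5% monocyte and macrophage markers. These thresholds were set after marker distributions were seen. T cells (at least 0.3%) and neutrophils (at least 5%) gave the background.

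UMIs summed per library and gate were tested with edgeR 4.0.16 (filterByExpr, TMM, quasi-likelihood, two-sided) and, as an alternative, DESeq2 1.42.0, and checked on simulated data. Single values were compared by exact permutation over mice. Intervals are Clopper-Pearson at 95%. The replicate numbers do not pair mice (r = -0.09, -0.01 and -0.08). With 2 mice a group, p-values measure the spread between these mice. Named were the 5 most used genes per gate, each library's leader, up to 5 called genes per direction, each family's most used B cell gene, Ighv11-2 and Ighv12-3. The members and lists were chosen with earlier results of these data known. Positions and V sequences are from GENCODE M21, not shown to be the authors' release. R 4.3.3, Python 3.11.15, scipy 1.17.1 and edlib 1.3.9.post1 were used.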

Additional observations from a re-analysis of the deposited data

How the results depend on the processing

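With 2 mice a group, the exact test of a single value cannot pass 0.05, so the evenness and level differences between genotypes were called under no setting. Depth limits B cells, where few cells held 2 Ighv UMIs, and thinning to 500 UMIs left too few B cells to give an effective number. Members close in sequence cannot be told apart fully by counts.

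Of 60 alternative values of evenness, share and level, 47 kept their direction and stayed within the spread between libraries. The difference in the plasma effective number, 0.161 in favour of D3TA, turned to -6.61 under a stricter cell filter (1000 UMIs, 500 genes, 5% mitochondrial), -2.41 under a stricter gate and -9.76 with at least 3 UMIs and 9 in 10. The difference in the largest plasma share, -1.33 percentage points, was 2.60 under the stricter cell filter, 0.555 with genes assigned from 1 UMI (chosen after the data were seen), -20.4 by UMI shares and -25.4 with cells thinned to 500 UMIs. With 1 library left out, the difference lay between -33.0 and 6.50 for the B cell effective number, -10.4 and 10.7 for the plasma effective number, -17.4 and -7.86 for plasma minus B, and -14.6 and 11.9 points for the largest plasma share. The Ighv share of UMIs lay between -0.00281 and -0.00149 percentage points in B cells and between -0.0446 and 0.00345 in plasma cells. The cause was not tested.

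The 3 members called in plasma cells became 33 without a filter on low counts, 9 with a replicate block and 10 to 28 with 1 library left out. The 1 member called in the whole spleen became 7 with DESeq2, 3 without that filter, 5 with a replicate block, 0 under the stricter cell filter and 2 to 23 with 1 library left out. In B cells 0 became 6 without D3TA replicate 2, and leaving out libraries gave 0 to 6. A fit without a library rests on a lone mouse assumed to vary like the other group, so its number of calls is left out. The same replicate number does not pair mice here, and the block changed no call in B cells (0). Of 47 alternatives for the 4 called genes, 42 kept the call. The 5 that lost it were Ighv10-1 under the stricter cell filter and without each library. The 3 plasma cell genes hold UMIs of very few cells in 1 group and 0 in the other. Settings that recount the same cells hence give no independent support for them.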

Other observations

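Neutrophils also held UMIs of the locus, among them those of an annotated pseudogene. Ighv1-41 gave 72 UMIs in 69 neutrophils of D3TA replicate 1 and 38 in 37 of D3TA replicate 2, or 1.73 CPM in each (95% Poisson intervals 1.35 to 2.17 and 1.23 to 2.38, counting error only). WT neutrophils were few (95 and 93) and gave 1 UMI each, or 1.95 and 1.49 CPM. D3TA T cells held 0 and 0 UMIs of Ighv1-41, against 1 and 0 in WT, and plasma cells of all 4 libraries held 0. D3TA B cells held 0 and 4, against 2 and 14 in WT. The V exon, with its end from the cysteine codon in capitals as above, is at chr12:114932371-114932653 on the minus strand of GRCm38, and 2 in-frame stop codons lie in its spliced transcript.

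Ighv1-41: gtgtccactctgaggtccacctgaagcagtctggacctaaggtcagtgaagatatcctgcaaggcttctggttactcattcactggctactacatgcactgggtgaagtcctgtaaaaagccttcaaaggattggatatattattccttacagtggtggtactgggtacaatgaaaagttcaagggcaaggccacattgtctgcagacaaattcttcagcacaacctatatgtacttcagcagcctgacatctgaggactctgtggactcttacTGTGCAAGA

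Ighv1-63 gave 15 and 9 UMIs in D3TA neutrophils, or 0.359 and 0.411 CPM, against 0 and 0 UMIs in WT. The WT neutrophils held only 514070 and 672131 UMIs in all, where 3 UMIs would be 5.84 and 4.46 CPM. Their 0 UMIs therefore cannot show whether the genotypes differ. Most other Ighv UMIs of D3TA neutrophils came from few cells: 8 and 7 cells with over 3 Ighv UMIs held 230 of 409 and 177 of 304. Why single transcripts of Ighv1-41 recur in these cells was not tested.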
